A study of Mus musculus with 6 samples.

Results

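The insulin-like growth factor (IGF) axis of the liver was described from 10 genes, namely Igfbp1, Igfbp2, Igfbp3, Igfbp4, Igf1, Igfals, Ghr, Insr, Irs1 and Irs2. Each gene was read from the probe set that carries its symbol alone, and where a gene had 2 such probe sets, the one with the higher mean over the 6 arrays was used. All 10 genes had a probe set and all 10 were above the floor of the data on all 6 arrays, out of 10347 genes measured above the floor on at least 1 array. The set was chosen by a measured value in 1 respect. Igfbp1 was singled out for its difference between the genotypes in these same arrays, so its difference is given as a description without a test. The other 9 genes were added for their place in the pathway, with earlier results of these data known.

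The livers came from untreated TLR3wt mice (C57Bl/6) and from TLR3-/- mice, all 3 months old and bred in-house under specific-pathogen-free conditions, with 3 mice per genotype and 1 array of total liver RNA per mouse. TLR3 senses double-stranded RNA inside endosomes, and the comparison shows how its genotype goes with transcript levels in resting liver. How the TLR3-/- allele was made and whether the mice were littermates are not given in the sources used here. Every liver had signal from Kdm5d, Uty and Eif2s3y, which are Y-linked, and none above the floor from Xist.

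As background, growth hormone from the pituitary binds its receptor on hepatocytes and acts through the kinase JAK2 and the transcription factor STAT5B, and the liver in turn secretes IGF1 into the blood. Circulating IGF1 is held by binding proteins, some in a large complex with the acid-labile subunit, and some, like IGFBP1, in small complexes that turn over quickly. Insulin works through its receptor, the adaptors IRS1 and IRS2 and the kinase AKT, which keeps FOXO transcription factors out of the nucleus. Igfbp1 is a widely used marker of this branch in liver, since its transcription is held down by insulin and driven by FOXO1, glucocorticoids and lack of amino acids.

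The sequences before the start sites of Igfbp1, Irs2 and Irs1 are shown because they are the 3 of the 10 genes whose window held the core of the insulin response element, a short site known from the Igfbp1 promoter. The letters searched were CAAAACA, on both strands of the 250 bases before each start site, in the RefSeq promoter table of GRCm38.p6. Capitals mark each match, which reads as its reverse complement where it lies on the other strand.
Igfbp1, chr11:7197537-7197786, plus strand: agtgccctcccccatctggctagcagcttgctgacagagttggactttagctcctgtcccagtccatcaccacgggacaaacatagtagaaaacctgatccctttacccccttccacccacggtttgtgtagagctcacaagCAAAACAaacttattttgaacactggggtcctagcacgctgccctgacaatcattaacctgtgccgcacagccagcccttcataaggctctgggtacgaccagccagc
Irs2, chr8:11008930-11009179, minus strand: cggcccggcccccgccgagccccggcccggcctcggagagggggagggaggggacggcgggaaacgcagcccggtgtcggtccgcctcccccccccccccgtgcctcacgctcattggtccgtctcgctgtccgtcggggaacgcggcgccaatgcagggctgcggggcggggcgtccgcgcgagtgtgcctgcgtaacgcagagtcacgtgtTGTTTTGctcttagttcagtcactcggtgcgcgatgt
Irs1, chr1:82291440-82291689, minus strand: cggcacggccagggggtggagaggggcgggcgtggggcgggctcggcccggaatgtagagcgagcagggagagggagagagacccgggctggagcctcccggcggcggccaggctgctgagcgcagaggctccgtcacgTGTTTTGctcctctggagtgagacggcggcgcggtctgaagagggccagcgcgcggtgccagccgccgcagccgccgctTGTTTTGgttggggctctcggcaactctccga
The core lay on the gene's own strand at -108 to -102 in Igfbp1, and on the other strand at -37 to -31 in Irs2 and at -111 to -105 and -32 to -26 in Irs1. It was present in 5.56% of the 32851 windows of the table. Windows were held for 9 of the 10 genes, and for Insr none was matched. Of 4 other motifs searched in the same way, the E-box CACGTG (6.02% of windows) was found in Igfbp2, Irs1 and Irs2, and it overlapped the upstream core in Irs1. The half-site GTTAAT of the hepatocyte factor HNF1 (6.43%) was found in Igfbp1, at -56 to -51. The STAT palindrome TTCNNNGAA (7.02%) and the FOXO consensus GTAAACA (3.17%) were each found in a window of Igfals and of no other of the 10 genes. These matches describe letters in a window and were not linked to binding in these mice.

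**Figure D1:**
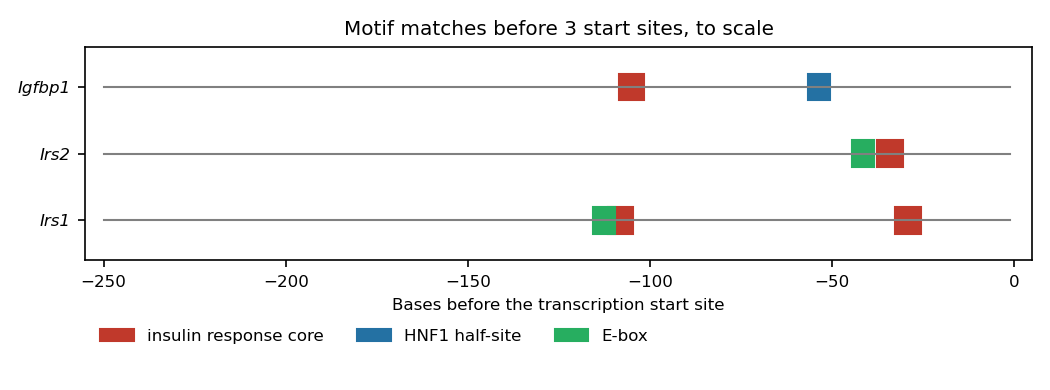
Motif matches in the 250 bases before the start sites of Igfbp1, Irs2 and Irs1, drawn to scale with the start site at the right and coloured by motif. The insulin response core lies at -108 to -102 in Igfbp1, at -37 to -31 in Irs2 and at 2 places in Irs1, where the upstream one overlaps the E-box.

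On each array 15081 to 15226 probe sets were above the floor of 5 (log2 RMA signal, a normalised brightness on a log2 scale), and arrays correlated at 0.980 to 0.991. The Tlr3 probe set was at the floor in all 6 livers, so the arrays gave no check of the genotype labels. Hepatocyte genes marked the tissue, with Alb (albumin) between 13.02 and 13.09 in the 6 livers. One liver stood apart. On the second principal component (22.2% of the variance) TLR3wt replicate 3 was at 17.6, with TLR3wt replicates 1 and 2 at -14.5 and -11.1 and the TLR3-/- livers between -0.7 and 4.7. Results that rest on this liver are given with and without it or by liver, a choice made for the counts over gene lists after seeing the data.

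Igfbp1 (probe set 10374223) differed more between the genotypes than any other of the 10 genes. Its log2 signal was 10.12, 10.19 and 10.05 in TLR3wt replicates 1 to 3 and 7.95, 6.92 and 7.85 in TLR3-/- replicates 1 to 3. Every TLR3-/- liver lay below every TLR3wt liver, with 2.10 log2 units between the closest pair. The means were 7.57 ± 0.57 and 10.12 ± 0.07 (SD, n = 3 each), a difference of -2.55 with a standard error of 0.27, or 17.1% of the TLR3wt level. The spread was also unequal, since the 3 TLR3wt livers covered 0.14 log2 units and the 3 TLR3-/- livers 1.03. Leaving out TLR3wt replicate 3 gave a difference of -2.58, and leaving out TLR3-/- replicate 2, the liver with the lowest value, gave -2.22.

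**Figure D2:**
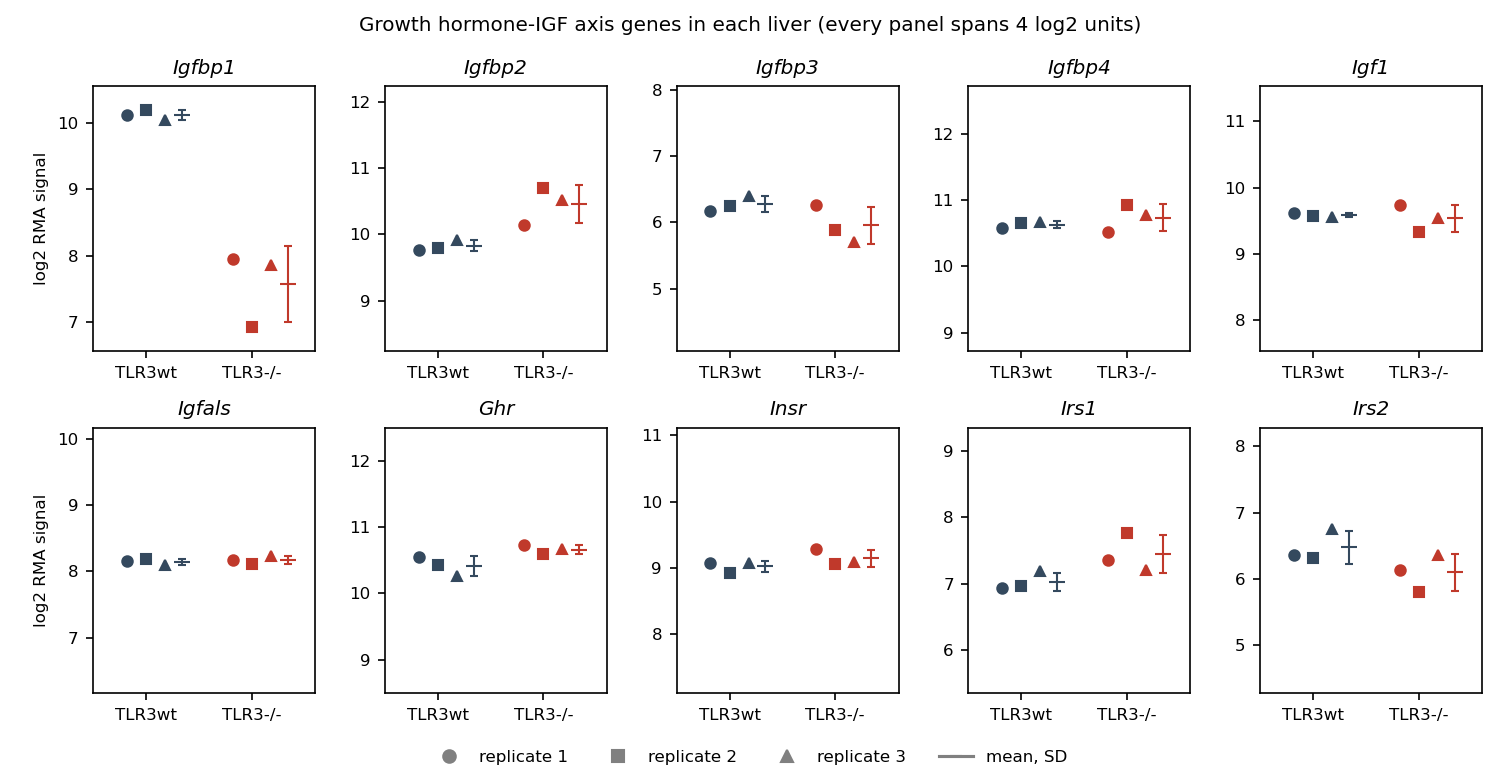
Log2 RMA signal of the 10 genes in each liver, TLR3wt in dark blue and TLR3-/- in red, with a symbol for each replicate number and the group mean with its SD (n = 3) beside the points. Every panel spans 4 log2 units, so the drop of Igfbp1 from 10.12 to 7.57 can be set against the smaller distances of the other genes.

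The second binding protein gene, Igfbp2 (probe set 10347277), which encodes another secreted IGF carrier of hepatocytes, was higher on average in TLR3-/- livers. Its log2 signal was 9.77, 9.79 and 9.92 in the TLR3wt livers and 10.14, 10.70 and 10.51 in the TLR3-/- livers. The groups did not overlap, and the mean difference was 0.62 (SE 0.15, 95% interval 0.27 to 0.97), a ratio of 1.54. It did not pass in limma over all 16639 tested probe sets (adjusted p = 0.171). Among the TLR3-/- livers the order of Igfbp2 was the reverse of that of Igfbp1, with replicate 2 highest in Igfbp2 and lowest in Igfbp1.

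Igfbp3 (10384223) encodes the carrier of most circulating IGF1 and is made in rodent liver mainly by non-parenchymal cells. Its signal was 6.17, 6.25 and 6.40 in TLR3wt and 6.26, 5.89 and 5.71 in TLR3-/- livers. The groups overlapped through TLR3-/- replicate 1, and the difference of -0.32 (95% interval -0.675 to 0.04) did not pass (limma adjusted p = 0.385). Igfbp3 is the gene next to Igfbp1 on chromosome 11, and the gene on the other side of Igfbp1, Adcy1, was at the floor in all 6 livers. Igfbp1 and its neighbour thus differed in size by -2.55 against -0.32, with no test of the difference between them.

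Igfbp4 (10381096), a binding protein that limits IGF action in tissues, was 10.58, 10.65 and 10.67 in TLR3wt and 10.52, 10.92 and 10.77 in TLR3-/- livers. Both the lowest and the highest of these 6 values were TLR3-/- livers. The difference was 0.105 (95% interval -0.16 to 0.37; limma adjusted p = 0.709), and it was 0.01 without TLR3-/- replicate 2.

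The ligand gene Igf1 (10365559) lay close together in the 2 genotypes. It was 9.62, 9.57 and 9.56 in TLR3wt livers and 9.73, 9.33 and 9.54 in TLR3-/- livers, so that the TLR3-/- values surrounded the TLR3wt ones. The difference of -0.05 had a 95% interval of -0.31 to 0.21 (limma adjusted p = 0.869), and it turned to 0.05 without TLR3-/- replicate 2. Igfals (10442625), which encodes the acid-labile subunit of the circulating IGF complex and depends on growth hormone, was 8.15, 8.18 and 8.09 in TLR3wt and 8.17, 8.11 and 8.23 in TLR3-/- livers. Its difference of 0.03 (95% interval -0.11 to 0.17; limma adjusted p = 0.856) took the other sign after centring the arrays, after a repeat of the quantile normalisation and without TLR3-/- replicate 3.

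The receptor genes were slightly higher on average in TLR3-/- livers. Ghr (10427402), the growth hormone receptor, was 10.55, 10.42 and 10.26 in TLR3wt and 10.72, 10.59 and 10.66 in TLR3-/- livers. The groups did not overlap, though TLR3wt replicate 1 and TLR3-/- replicate 2 lay close together, and the difference of 0.24 (95% interval 0.03 to 0.46) did not pass (limma adjusted p = 0.292). Without TLR3wt replicate 3, which had the lowest Ghr, it was 0.17. Insr (10576692), the insulin receptor, was 9.07, 8.93 and 9.08 in TLR3wt and 9.29, 9.06 and 9.09 in TLR3-/- livers. These groups overlapped, with a difference of 0.12 (95% interval -0.09 to 0.32; limma adjusted p = 0.578), and it was 0.05 without TLR3-/- replicate 1. A further Insr probe set, with a mean of 8.43 against 9.09 for the one used, had a difference of 0.08.

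The adaptor genes Irs1 and Irs2 had means on opposite sides. Irs1 (10356084) was 6.93, 6.96 and 7.19 in TLR3wt livers and 7.36, 7.76 and 7.21 in TLR3-/- livers. The closest pair, TLR3wt replicate 3 and TLR3-/- replicate 3, was all but level, and the difference of 0.41 (95% interval 0.04 to 0.79) did not pass (limma adjusted p = 0.303). Without TLR3-/- replicate 2, the highest liver, it was 0.26. A further Irs1 probe set was at the floor on all 6 arrays. Irs2 (10576971), which insulin represses in liver, was 6.36, 6.31 and 6.75 in TLR3wt livers and 6.13, 5.80 and 6.36 in TLR3-/- livers. The groups overlapped, with a difference of -0.38 (95% interval -0.81 to 0.06; limma adjusted p = 0.399), and leaving out TLR3wt replicate 3 or TLR3-/- replicate 2 gave -0.24 or -0.23. Irs2 and Insr lie on chromosome 8, as Tlr3 does, with 111 and 135 tested genes between each of them and Tlr3, so effects of neighbouring chromosome carried along with the TLR3-/- allele cannot be told apart from those of the genotype.

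**Figure D3:**
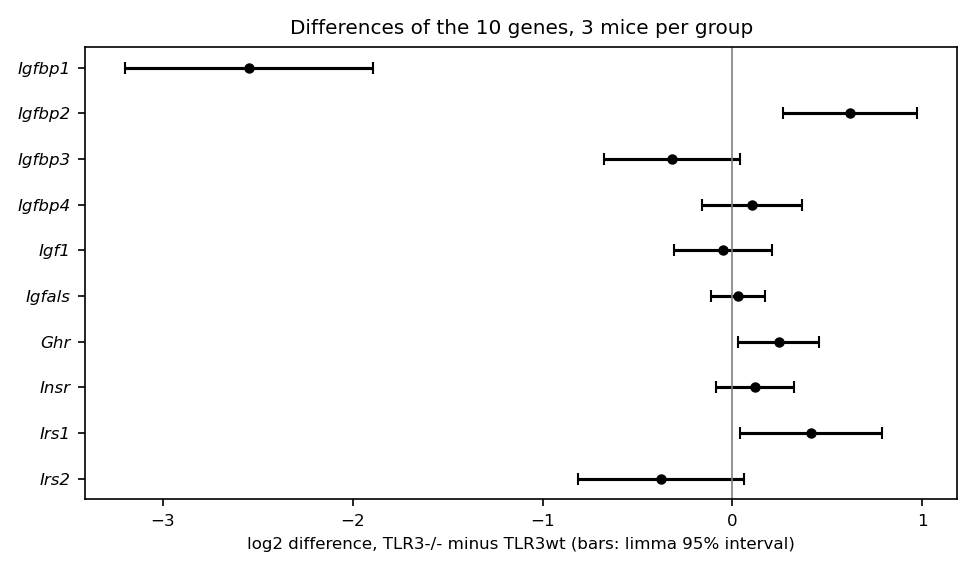
Log2 difference of each gene, TLR3-/- minus TLR3wt, with limma's 95% interval (3 mice per group). Igfbp1 lies at -2.55, apart from the other 9 genes, which lie between -0.38 and 0.62, and the intervals of Igfbp2, Ghr and Irs1 lie above 0. The interval of Igfbp1 is descriptive, since the gene was chosen for this difference.

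Of the 9 genes other than Igfbp1, 0 passed an adjusted p of 0.05 in limma, where 31 of all 16639 tested probe sets did (0.186%). An unadjusted p under 0.05 was reached by 3 of the 9 (Igfbp2, Ghr and Irs1), against 14.5% of all tested probe sets. In the same 3 genes the groups did not overlap, against 20.1% of all tested probe sets. For each of these 3 the exact permutation test over the 6 mice gave p = 0.1, two-sided, which is the smallest that 3 against 3 can give. Groups that do not overlap always give this p, so it adds nothing to the count without overlap. Of all 10 genes, 6 had a higher and 4 a lower mean in TLR3-/- livers, and over all tested probe sets 41.2% had a lower mean.

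Within each genotype 1 liver often lay at an end of its group. TLR3-/- replicate 2 was the highest or the lowest of its group in 9 of the 10 genes, against 59.5% of all tested probe sets, being highest in Igfbp2, Igfbp4 and Irs1 and lowest in Igfbp1, Igf1, Igfals, Ghr, Insr and Irs2. TLR3wt replicate 3 held an end of its group in all 10, against 66.0% of all tested probe sets. With 3 livers a group, most livers lie at an end in any gene, and the 10 genes are not independent of each other, so these counts are a description. TLR3wt replicate 3 was highest in Igfbp2, Igfbp3, Igfbp4, Insr, Irs1 and Irs2 and lowest in Igfbp1, Igf1, Igfals and Ghr. Even so the TLR3wt livers were close together in Igfbp1, Igfbp4, Igf1 and Igfals (SD 0.03 to 0.07), while the TLR3-/- livers had an SD of 0.06 in Igfals and of 0.20 to 0.57 in the other 3. These genes had the smallest TLR3wt SD of the 10, and that choice favours a larger SD in TLR3-/- livers. Of the remaining genes, Ghr alone had the smaller SD in TLR3-/- livers (0.07, against 0.15 in TLR3wt). In Irs2 the SD was 0.28 in TLR3-/- and 0.24 in TLR3wt livers.

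The remaining genes of the IGF family were mostly not detected. Of 16 listed genes, 12 were at the floor in all 6 livers, among them Igf2 and the IGF1 receptor gene Igf1r, and 1 had no probe set of its own. Igfbp5, another binding protein gene and the neighbour of Igfbp2 on chromosome 1, was at the floor in all 3 TLR3wt livers and at 5.45, 5.05 and 5.14 in the TLR3-/- livers. It was at least 1.16-fold higher in TLR3-/- livers and did not pass (limma adjusted p = 0.414). Igf2r, the receptor that clears IGF2, and Igfbp7 had differences of -0.04 and -0.07.

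Genes of growth hormone receptor signalling showed small differences on either side. Of 22 measured genes 13 had a lower mean (median -0.02, against 0.03 over all tested probe sets), and 0 passed in limma, with 3 at an unadjusted p under 0.05. The balance of signs turned without TLR3wt replicate 3 (8 of the 22 lower) and also without TLR3-/- replicate 2 (10 of the 22 lower). Adam17, the protease that sheds the receptor's outer part, had the smallest p, with 7.08, 7.05 and 7.10 in TLR3wt and 6.84, 6.86 and 6.88 in TLR3-/- livers. Its difference was -0.21 (limma adjusted p = 0.168). Ptpn1, a phosphatase that acts on JAK2 and the insulin receptor, had a difference of -0.30, and Stat5b one of 0.23. Src was at the floor in the TLR3-/- livers and at most 5.10 in the TLR3wt livers. The counts of this list and those below can be set beside all 10347 tested genes, 1 probe set each. Of these, 39.1% had a lower mean and 1621 an unadjusted p under 0.05 in limma, and in 22.7% the groups did not overlap.

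The targets that a growth hormone pulse acts on within hours varied widely between mice of 1 genotype. These 3 genes were named after their values were seen. Cish, a feedback inhibitor induced through STAT5, was 7.22, 5.88 and 5.76 in TLR3wt and 7.0, 5.0 and 5.36 in TLR3-/- livers, so that replicate 1 of each genotype was high. Bcl6, a repressor that growth hormone turns down, was lowest in the same 2 livers, at 5.90 and 5.99, and was 6.47 and 7.82 in TLR3wt replicates 2 and 3 and 8.07 and 7.69 in TLR3-/- replicates 2 and 3. Igf1 was highest in the same liver of each genotype. Socs2, a further STAT5-induced inhibitor, had another order, with 7.35, 6.92 and 6.74 in TLR3wt and 6.78, 5.39 and 7.70 in TLR3-/- livers. The differences between the genotypes were -0.50 for Cish, 0.52 for Bcl6 and -0.38 for Socs2, each with a 95% interval wide on both sides of 0 (limma adjusted p = 0.761, 0.777 and 0.798).

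**Figure D4:**
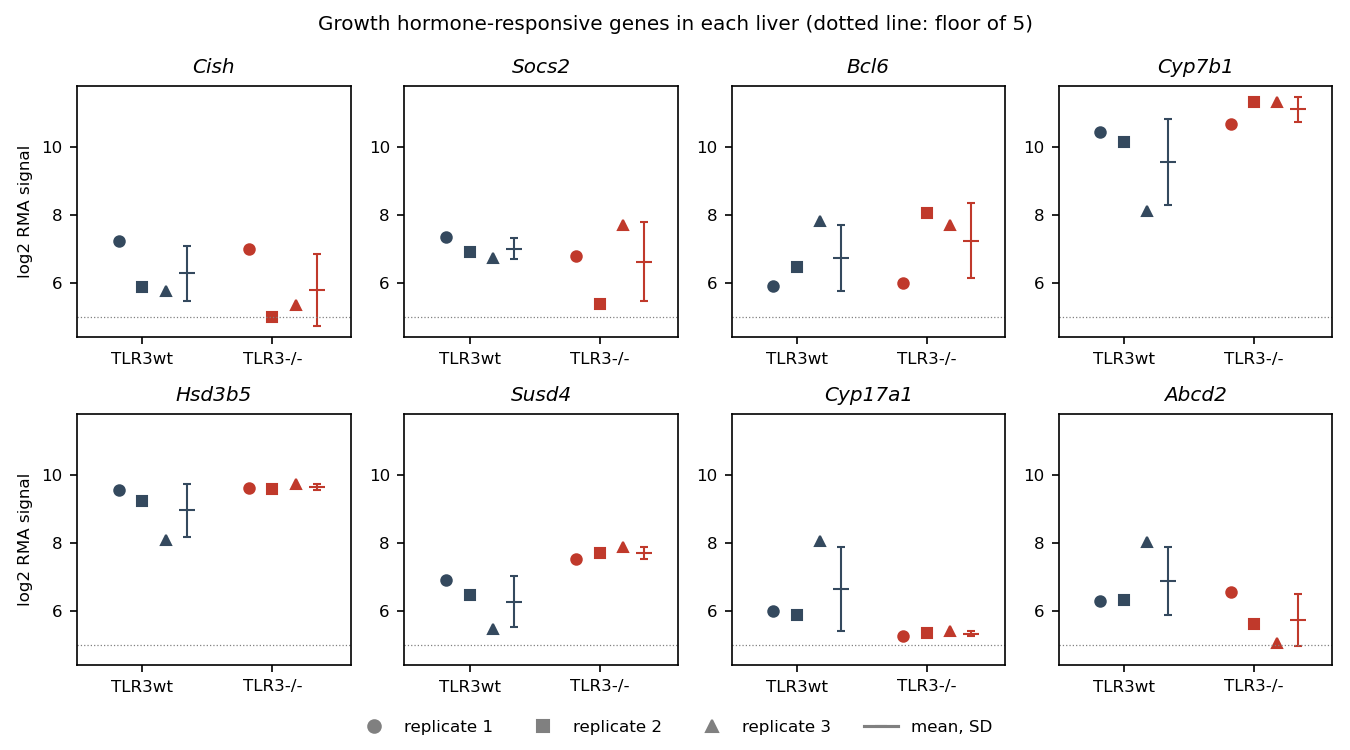
Log2 RMA signal of 8 growth hormone-responsive genes in each liver, with a symbol for each replicate number and the group mean with its SD (n = 3). Replicate 1 of both genotypes is high in Cish and low in Bcl6, and TLR3wt replicate 3 lies apart in Cyp7b1, Hsd3b5 (both chosen after their values were seen), Susd4, Cyp17a1 and Abcd2.

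Male liver owes part of its pattern to pulsed growth hormone. Among the genes with this male bias, the balance of signs rested on 1 TLR3wt liver. Of 21 measured genes 15 had a higher mean in TLR3-/- livers (median 0.17), as did 6298 of all 10347 tested genes. In limma 0 passed and 4 were at an unadjusted p under 0.05, against 1621 of all tested genes. The mean of the list relative to the TLR3wt average was 0.20, 0.18 and -0.38 in TLR3wt replicates 1 to 3 and 0.16, 0.34 and 0.37 in the TLR3-/- livers. Without TLR3wt replicate 3 the median was -0.10 and 9 of 21 were higher. Cyp7b1, an oxysterol hydroxylase of bile acid synthesis named after its values were seen, was 10.45, 10.14 and 8.11 in TLR3wt and 10.68, 11.33 and 11.33 in TLR3-/- livers. Susd4, a regulator of complement, was 6.90, 6.45 and 5.45 in TLR3wt and 7.53, 7.70 and 7.88 in TLR3-/- livers, a difference of 1.44 that did not pass (limma adjusted p = 0.181). Keg1 went the other way with -0.43, and Cyp2u1, a fatty acid hydroxylase, had 0.68. Cspg5 and Ces2b were at the floor in TLR3-/- livers and at most 5.25 in TLR3wt livers.

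Of the female-biased genes, 11 of 28 listed were measured, 8 were at the floor in all 6 livers and 9 had no probe set of their own. In 7 of the 11 the mean was lower in TLR3-/- livers (median 0.00 after rounding), with 0 passing in limma and 0 at an unadjusted p under 0.05. Cyp17a1, a steroid hydroxylase, was 5.99, 5.86 and 8.05 in TLR3wt and 5.24, 5.33 and 5.39 in TLR3-/- livers, and Abcd2, a peroxisomal fatty acid transporter, was 6.28, 6.31 and 8.03 against 6.54, 5.60 and 5.04. In both genes TLR3wt replicate 3 stood above the other 5 livers. Cyp2b10 was lowest in that liver (5.96, against 6.67 to 7.40 in the others), and Cyp2b9 was above the floor in that liver alone. Cux2, a female-biased regulator, was at 5.01 in 1 TLR3wt liver and at the floor in the others.

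The insulin pathway downstream of the adaptors was nearly level. Of 35 measured genes 22 had a higher mean (median 0.04), with 0 passing in limma and 4 at an unadjusted p under 0.05. Foxo4 (0.17) and Sgk2 (0.27) were among the higher and Sgk3 (-0.45) among the lower. Phlpp2 was at the floor in all but 1 liver. Without TLR3-/- replicate 1 the median was -0.01.

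Genes that FOXO factors induce and insulin represses, the class to which Igfbp1 belongs, had differences on both sides. Of 30 measured genes other than Igfbp1, 19 had a higher and 11 a lower mean (median 0.04). The lower share of 36.7% was close to the 39.1% of all tested genes. In limma 0 passed and 11 were at an unadjusted p under 0.05, 6 higher and 5 lower, against 1621 of all 10347 tested genes. The groups did not overlap in 10 of them (33.3%, against 22.7% of all tested genes). Lpin1, a phosphatidate phosphatase and coactivator, was 8.98, 9.88 and 7.93 in TLR3wt and 7.76, 6.60 and 6.21 in TLR3-/- livers (difference -2.07; limma adjusted p = 0.214). Cited2, a coregulator, was higher by 0.47, and Klf15, a fasting-induced factor, lower by a difference of -0.35. The gluconeogenic enzyme genes, named after their values were seen, had lower means with overlapping groups. Pck1 was 11.12, 11.66 and 11.42 against 10.48, 10.66 and 11.21, and G6pc was 11.49, 11.69 and 10.93 against 10.89, 10.48 and 11.16 (limma adjusted p = 0.292 and 0.394).

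Genes that insulin induces leaned to the lower side. Of 26 measured genes 18 had a lower mean (median -0.15), with 6 at an unadjusted p under 0.05, and 1 gene passed in limma. This was Ppp1r3b, which brings protein phosphatase 1 to glycogen. It was 8.21, 8.39 and 8.36 in TLR3wt and 7.07, 7.23 and 6.97 in TLR3-/- livers, a difference of -1.23 (limma adjusted p = 0.0406). The call was lost with all probe sets entered (limma adjusted p = 0.370), without variance moderation (0.191) and when any 1 mouse was left out (0.0560 to 0.136), with adjusted p from 0.0106 to 0.370 over all alternatives. The related gene Ppp1r3c of the same list, named after its values were seen, went the other way. It was 6.43, 6.68 and 7.69 in TLR3wt and 7.92, 8.26 and 8.44 in TLR3-/- livers, a difference of 1.28 (limma adjusted p = 0.194). Pnpla3 was at the floor in all but 1 liver. The median lay between -0.31 and -0.01 when 1 mouse at a time was left out. By liver, the mean of the list lay from -0.05 to 0.06 in TLR3wt. The TLR3-/- livers were divided, replicate 1 being at 0.11 and the others at -0.23 and -0.32.

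Of the other known inducers of Igfbp1, the glucocorticoid-induced genes showed lower means in the largest share. Of 21 measured genes 19 were lower (median -0.64), against 39.1% of all tested genes. In limma 0 passed and 13 were at an unadjusted p under 0.05, all lower, against 575 of all 10347 tested genes that were lower at this p. In 14 the groups did not overlap (66.7%, against 22.7% of all tested genes). Not all of these 14 were lower. Nr3c1, the gene of the glucocorticoid receptor itself, named after its values were seen, was higher in TLR3-/- livers by 0.14. This direction was known from earlier results of these data. The mean of the list was -0.88 to -0.76 in the TLR3-/- livers and -0.32 to 0.31 in the TLR3wt livers. Dusp1, a phosphatase of MAP kinases, was 9.12, 9.13 and 8.76 in TLR3wt and 8.25, 7.80 and 7.80 in TLR3-/- livers (limma adjusted p = 0.0994). Tsc22d3, the glucocorticoid-induced leucine zipper, and Zbtb16 had differences of -0.78 and -1.16, and Per1, at the floor in the TLR3-/- livers, was at least 1.55-fold lower there. Whether these genes and Igfbp1 share a cause was not tested.

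Amino acid response genes, targets of ATF4, were lower in 16 of 23 measured genes (median -0.16, or -0.04 without TLR3wt replicate 3), with 0 passing in limma and 6 at an unadjusted p under 0.05. The transporter gene Slc38a2 (-0.58), the hormone gene Fgf21 (-0.67) and Ddit4 (-0.50), an inhibitor of mTORC1, had the smallest p, and Slc38a2 and Ddit4 also stand in the glucocorticoid list. Atf4 itself, named after its values were seen, had a difference of 0.20. Mthfd2 and Aldh18a1 were at the floor in the TLR3-/- livers and at most 5.46 in the TLR3wt livers. Genes induced by hypoxia-inducible factors were divided, 8 higher and 9 lower of 17 (median -0.01, or 0.05 without TLR3wt replicate 3), with 0 passing in limma and 4 at an unadjusted p under 0.05. P4ha1, a collagen prolyl hydroxylase, and Hmox1, haem oxygenase 1, had differences of -1.02 and -0.66, and the oxygen sensor gene Egln1 one of 0.28. Adm and Hk2 were at the floor in TLR3-/- livers and at most 5.12 in TLR3wt livers. As in the glucocorticoid list, the list means of the genotypes did not overlap. The mean of the ATF4 list was -0.23 to -0.16 in TLR3-/- and -0.14 to 0.09 in TLR3wt livers. That of the hypoxia list was -0.18 to -0.07 in TLR3-/- and -0.05 to 0.07 in TLR3wt livers.

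**Figure D5:**
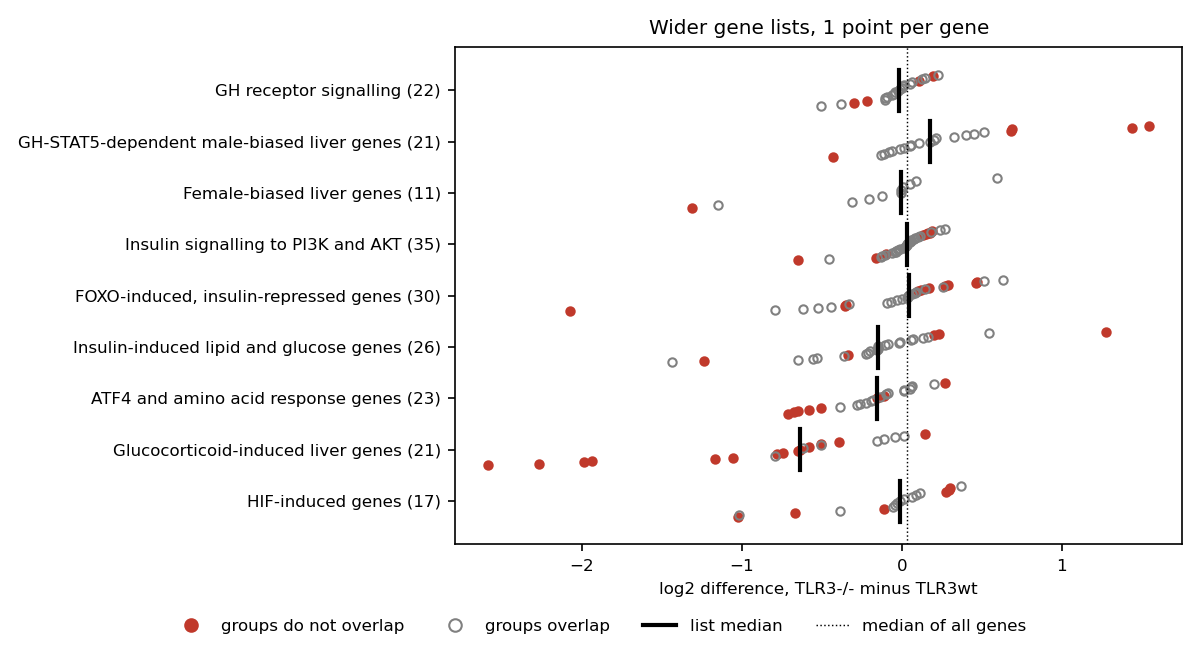
Log2 differences, TLR3-/- minus TLR3wt, of the measured genes of 9 lists, with filled points for genes whose groups do not overlap, a black bar at the list median and a dotted line at the median of all genes. The glucocorticoid list has its median at -0.64, the male-biased list at 0.17, and the FOXO list, without Igfbp1, has points on both sides and a median of 0.04.

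Markers of other liver cells were set beside these values. In whole liver RNA, fewer cells of a type and less RNA per cell cannot be told apart. Hepatocyte genes, 11 measured, had a median of -0.01 with 6 on the lower side, and leaving out TLR3wt replicate 3 gave 0.02 with 4 on that side, while the mean of this list lay within 0.02 of the TLR3wt average in all 6 livers. The hepatocyte factor gene Hnf4a had a difference of -0.26, the apolipoprotein gene Apoc3 one of 0.12 and Cyp2e1 one of 0.25, with no overlap of the groups and none passing in limma. Of 18 macrophage and Kupffer cell genes, 15 were measured and 14 of these were lower (median -0.80, or -0.55 without TLR3-/- replicate 2), with Cd14, Itgam and Spi1 at the floor in every liver. Timd4, Adgre1 and the scavenger receptor gene Marco had the smallest p, with differences of -0.90, -1.00 and -1.08 (limma adjusted p = 0.0994, 0.114 and 0.138). The mean of the macrophage list was -0.58, -1.03 and -0.49 in TLR3-/- replicates 1 to 3 and -0.21 to 0.23 in TLR3wt livers. TLR3-/- replicate 2 was thus lowest in this list, as it was in Igfbp1. The rest of the order differed, since in both genotypes replicate 3 lay above replicate 1 in this list and below it in Igfbp1. The part of these cells in the differences of the IGF axis was not tested. Endothelial genes, 15 of 15 measured, had a median of 0.01, 7 being lower, or 11 without TLR3wt replicate 3, with list means of -0.17 to 0.10 in TLR3-/- and -0.09 to 0.14 in TLR3wt livers. Stellate cell and fibroblast genes, 14 of 16 measured, had a median of 0.00 after rounding, or 0.09 without TLR3wt replicate 3, with list means of -0.08 to 0.03 in TLR3-/- and -0.06 to 0.12 in TLR3wt livers. All 10 neutrophil genes and the 6 B cell genes with a probe set of their own were at the floor, as were 10 of 12 T and NK cell genes and 6 of 7 cholangiocyte genes.

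The genes with a profile most like that of Igfbp1 were sought among 139 genes that were above the floor on all 6 arrays and had an SD of at least 0.5 over them. Pearson's r over the 6 arrays was highest for Cfp (0.98), Slc39a4 (0.97), Nabp1 (0.97), Timd4 (0.97), Vaultrc5 (0.96) and Adgre1 (0.96). Cfp encodes properdin of the complement system, Slc39a4 a zinc transporter, and Timd4 and Adgre1 are macrophage genes. The most negative r was that of Arrdc3 (-0.99), an arrestin-domain gene, followed by Hamp (-0.945), Mid1 (-0.93), Cyp26a1 (-0.91), Rnf167 (-0.90) and Id3 (-0.89). Arrdc3 was 8.10, 8.06 and 7.98 in TLR3wt livers and 9.07, 9.39 and 8.85 in TLR3-/- livers, a difference of 1.06. No test is given for it, since it was picked by its r with Igfbp1 over these same arrays. All of these values share the split into 2 genotypes, which alone gives a high r with Igfbp1, and they describe the 6 arrays only. Of the other 9 genes of the axis, whose SD was not required to reach 0.5, r with Igfbp1 ranged from -0.944 (Igfbp2) to 0.745 (Irs2).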

How the data were processed

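Liver RNA from 6 mice was hybridised, 1 Affymetrix array for each. The deposited log2 values are RMA signals. The submitters' processing notes name RMA and Affymetrix Expression Console, and the values were used as the authors left them. The table holds 35557 probe sets and 0 columns of other samples. Its lowest value is exactly 5, a floor at which 57.2% to 57.6% of each array's values stood. The origin of this floor is not stated in the labels. A difference with values at the floor in the lower group alone is understated, and where all 3 arrays of that group stood there it is a bound. Where the higher group also had values at the floor, the difference may be off in either direction and is no bound.

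Symbols were taken from GEO's annotation of the array (21789 probe sets with 1 symbol, 1621 with several, 12147 with none), and 99.6% of the gene identifiers were found in the reference table of GRCm38.p6. That annotation's genome build is unknown here, and the reference table served for names and gene order only. The promoter coordinates belong to the RefSeq sequences.

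R 4.3.3 with limma 3.58.1 compared the genotypes (linear fit and empirical Bayes, two-sided, Benjamini-Hochberg adjustment over all tested probe sets, threshold 0.05). Leaving out 18918 probe sets that never exceeded the floor gave 16639. Precision is limited by 3 arrays per group. The members, lists and tests were chosen with earlier results of these data known. Named genes are the 10 members, from each list the genes that passed (failing that, the 3 of lowest unadjusted p) and those at the floor in 1 group, and the 6 genes with the highest and lowest correlation with Igfbp1. Alb was added to mark the tissue, and other additions are marked in the text. The cholangiocyte, T and NK cell, erythroid and adipocyte lists had at most 3 measured genes. Lists share genes, and each is described by counts and its median. In data simulated for this comparison over 16639 probe sets, limma recovered 42.0% of changes of 0.5, 85.7% of changes of 1 and 100.0% of changes of 2 on the log2 scale, with 6 false calls among 156. Whether these shares hold for the 6 livers was not tested. Among the genes of the lists, Lcn2, Mt2 (both named after their values were seen) and Lpin1 had differences of -2.58, -2.27 and -2.07. They did not pass (limma adjusted p = 0.258, 0.410 and 0.214). Lcn2 was 6.92, 7.34 and 10.19 in TLR3wt and 5.26, 5.90 and 5.55 in TLR3-/- livers. Mt2 was 5.69, 6.83 and 10.30 in TLR3wt and 5.37, 5.24 and 5.40 in TLR3-/- livers. In both genes TLR3wt replicate 3 stood above the other livers, and no difference without it is given.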

Additional observations from a re-analysis of the deposited data

How the results depend on the processing

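The difference of Igfbp1 lay between -2.73 and -2.22 in 19 alternatives. Those that change only the probe sets entered, the variance model, the block or the test leave it at -2.55. The gene was also chosen for this difference, so the range is a description and no check of it. Of the other 9 genes 0 passed in limma in any of 18 alternative fits, with 1 to 3 at an unadjusted p under 0.05. Over all tested probe sets the 31 calls became 0 with all probe sets entered (2018 at an unadjusted p under 0.05 in limma), 1 with 1-symbol probe sets, 3 with identical probe sets once, 2 without variance moderation, 9 after quantile normalisation again, 14 after centring the arrays, 18 when only those exceeding the floor on all arrays entered and 48 with those exceeding it on at least 3. Leaving out 1 mouse gave 0 to 13 (0 without TLR3-/- replicate 3, TLR3wt replicate 1 or TLR3wt replicate 2, where 2203, 2577 and 1771 were at an unadjusted p under 0.05 in limma). The cause of these shifts was not tested.

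Of 173 values of the other 9 genes under the alternatives, 169 kept their direction and their side of the threshold. Many of them could not change direction, since the probe sets entered, the variance model and the block leave the difference as it is. The exact permutation test cannot give less than p = 0.1, so it could not cross the threshold. The count is therefore no measure of stability. Igf1 turned to 0.0547 without TLR3-/- replicate 2 (range without 1 mouse -0.15 to 0.0547). Igfals turned to -0.0014 after centring the arrays, to -0.0105 after quantile normalisation again and to -0.0010 without TLR3-/- replicate 3 (range -0.0010 to 0.0613). The male-biased list turned to a median of -0.10 without TLR3wt replicate 3 (range -0.10 to 0.28). Replicate numbers are shared by the genotypes, but same-numbered mice did not deviate together (correlations of deviations 0.05, -0.01 and -0.06), so the replicate block, with 4 calls over all probe sets and without the call of Ppp1r3b (limma adjusted p = 0.133), is given only here. The Irs1 probe set at the floor on all arrays gave no alternative value. The median difference over all tested probe sets was 0.03, and it was -0.0035 after centring and 0.0054 after a repeat of the quantile normalisation.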

Other observations

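Erythroid genes were measured for 3 of 8 listed names, all with lower means in TLR3-/- livers (median -0.34, or -0.18 without TLR3wt replicate 3). Tfrc, the transferrin receptor gene, was 8.01, 8.18 and 7.79 in TLR3wt and 6.14, 7.78 and 6.57 in TLR3-/- livers (limma adjusted p = 0.283), and Alas2 had a difference of -0.22. Slc4a1 was at the floor in the TLR3-/- livers. Fabp4, an adipocyte marker, was at the floor in the TLR3-/- livers as well and at 5.02 to 5.62 in the TLR3wt livers, with Cidec near the floor throughout and Adipoq, Plin1, Lep and Retn at the floor in all 6.

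Among endothelial genes Lyve1, a hyaluronan receptor gene, was 6.16, 6.52 and 6.71 in TLR3wt and 6.15, 6.05 and 5.52 in TLR3-/- livers. Pecam1 had a difference of -0.24 and Fcgr2b one of 0.29. Among stellate cell and fibroblast genes, the collagen gene Col3a1 had a difference of -0.55 and Ecm1 one of 0.20, while Pdgfra, a growth factor receptor gene, was 5.57, 5.45 and 5.61 in TLR3wt and 5.81, 6.01 and 5.84 in TLR3-/- livers, a difference of 0.34 (limma adjusted p = 0.169). The cholangiocyte gene Sox9 had a difference of 0.19, and the lymphocyte genes Prf1 and Cd8a were at the floor in the TLR3-/- livers and at most 5.13 in the TLR3wt livers. None of these endothelial or stellate genes passed in limma.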
